A study of Mus musculus with 9 samples.

Results

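Acod1, the gene of the itaconate-forming enzyme, and 8 genes for enzymes of the tricarboxylic acid (TCA) cycle, Cs, Aco1, Idh1, Idh2, Idh3a, Ogdh, Sdha and Fh1, were followed in peritoneal macrophages of mice after an injection of interferon. The 9 genes were chosen by name, and each had 1 probe set (a group of array probes read as 1 value) that carries its symbol alone, out of 19752 genes with such a value. The arrays fall into 3 groups, all from male C57BL/6 mice of 6 weeks of age. Mice received 8000 U of recombinant IFNg, the type II interferon (n = 2), 10000 U of recombinant IFNa, a type I interferon (n = 4), or no treatment (n = 3). Treated mice were injected under the skin and killed 2 h later, and cells of the peritoneal lavage were sorted in 2 rounds by flow cytometry. Treated samples are labelled as F4/80+ ICAM2+ macrophages, whereas the label of untreated samples has only F4/80+. The titles of untreated samples also hold the letters SPF, which those of treated samples do not. No mice injected with vehicle were included, so effects of the injection cannot be told apart from those of interferon. The labels do not say that each array is 1 mouse, so the p-values measure the spread between these arrays.

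Acod1 encodes cis-aconitate decarboxylase, a mitochondrial enzyme of activated macrophages. It draws cis-aconitate, the intermediate of the aconitase reaction, out of the TCA cycle and turns it into itaconate. Itaconate inhibits succinate dehydrogenase, the enzyme whose catalytic subunit is Sdha, and modifies KEAP1, the protein that holds the transcription factor NRF2 in check. The other enzymes carry carbon around the cycle: Cs makes citrate, the isocitrate dehydrogenases make 2-oxoglutarate, Ogdh is the first component of the complex that oxidises it, Sdha oxidises succinate, and Fh1 hydrates fumarate to malate.

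The values are array intensities after robust multi-array averaging (RMA), taken to log2. A difference of 1 in log2 is a 2-fold difference, and levels of different probe sets are not compared. Median intensity was 162 to 178 over the 9 arrays. The intensity range, taken as log2 of the upper quartile over the lower one, was 2.16 for IFNa replicate 4 and 2.27 for untreated replicate 1, against 2.68 to 3.03 in the other 7 arrays, so those 2 arrays were the narrowest. Adgre1, which encodes F4/80, averaged log2 13.03 after IFNg, 13.06 after IFNa and 13.01 in untreated cells, and Icam2 averaged 11.82, 11.53 and 11.77. Of 11 measured markers of large peritoneal macrophages 1 was called lower in each comparison with untreated, Gata6, by -1.16 ± 0.21 after IFNg (adjusted p = 0.0242) and by -1.05 ± 0.17 after IFNa (adjusted p = 0.00997), a gene named here after its values were seen. Without untreated replicate 2 neither call of Gata6 passed, and that after IFNg also ended without untreated replicate 3 or either IFNg array (adjusted p up to 0.337).

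Acod1 was the one gene of the 9 that passed the test over all arrays, and it rose after both interferons. Its intensity was 2876 and 3764 in the IFNg arrays, 415, 346, 496 and 409 in the IFNa arrays, and 196, 159.5 and 192 in the untreated arrays. On the log2 scale these are 11.49 and 11.88 after IFNg, 8.70, 8.43, 8.96 and 8.68 after IFNa, and 7.61, 7.32 and 7.59 in untreated cells. The 3 groups did not overlap: the lowest IFNg array lay 2.53 above the highest IFNa array, and the lowest IFNa array lay 0.82 above the highest untreated array. Groups of this size often do not overlap, which held for 27.8% of all genes between IFNg and untreated (12.3% higher, 15.5% lower), 10.4% between IFNa and untreated (3.68% higher, 6.75% lower) and 28.4% between IFNg and IFNa (15.6% higher, 12.8% lower). The untreated arrays were already 6.17 to 7.99 times the 5th percentile of their own array, so Acod1 was measured above the dim end of the arrays in every group.

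Differences were tested with limma across all genes, with Benjamini-Hochberg adjustment and a call at an adjusted p under 0.05. After IFNg Acod1 rose by log2 4.18 ± 0.19 (standard error), with a 95% interval of 3.76 to 4.60, which is 18.1-fold (adjusted p = 6.85e-06). It was the gene with the 9th largest rise among the 19752. After IFNa it rose by 1.18 ± 0.16 (0.83 to 1.54), or 2.27-fold (adjusted p = 0.00241), and 4 of 4 IFNa arrays lay above every untreated array. In the direct comparison IFNg exceeded IFNa by 2.99 ± 0.18 (2.60 to 3.39), or 7.97-fold (adjusted p = 5.24e-05), the 2nd largest difference among genes higher after IFNg than after IFNa. The doses in units differ between the interferons, 8000 U and 10000 U, so the direct comparison is one of these injections. The order of the levels was therefore IFNg, then IFNa, then untreated, with both steps past the threshold. The share of all genes called was 1.35% after IFNg, 2.65% after IFNa and 0.977% between the interferons, and in this order 0.111%, 0.856% and 0.440% were lower.

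Acod1 can also be made by neutrophils. The summed intensity of 8 neutrophil and eosinophil markers was 965 to 1044 after IFNg, 971 to 1234 after IFNa and 1102 to 1388 in untreated cells. Mmp9, named after its values were seen, weighs most in the sum, at mean log2 values of 8.60, 8.50 and 9.02. It differed by -0.43 ± 0.25 after IFNg and -0.52 ± 0.21 after IFNa, beside list medians of -0.16 and -0.03. The lower sums of treated cells are therefore no measure of fewer neutrophils. None of the 8 was called in any comparison over all arrays. Without the 2 arrays of narrow range 1 of them was called lower after IFNa. Ly6g, a neutrophil marker, had the smallest p of the list after IFNa, with a difference of 0.49 ± 0.15 (adjusted p = 0.147), beside 0.16 ± 0.17 after IFNg, and was named after its values were seen. The part of such cells in the Acod1 values was not tested. In sorted cells measured in bulk, a change in the mix of cells and a change in RNA per cell cannot be told apart.

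The promoter of Acod1 is shown because of the 9 genes it alone was called after both interferons, and that of Cs is shown beside it as an enzyme gene that holds one of the same motifs. Both sequences are RefSeq windows of GRCm38.p6 from 250 bases before to 50 bases after the start of the gene, on the plus strand, at chr14:103046762-103047061 for Acod1 and chr10:128337477-128337776 for Cs. Capitals mark matches to the letters AANNGAAA, the core bound by interferon regulatory factors, and TATAAA, the TATA box.
Acod1: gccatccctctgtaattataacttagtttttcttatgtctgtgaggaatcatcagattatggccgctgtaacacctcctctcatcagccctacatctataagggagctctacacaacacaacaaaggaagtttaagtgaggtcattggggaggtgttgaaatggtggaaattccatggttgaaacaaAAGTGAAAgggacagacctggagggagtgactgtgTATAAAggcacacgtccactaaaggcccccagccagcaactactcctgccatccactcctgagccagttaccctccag
Cs: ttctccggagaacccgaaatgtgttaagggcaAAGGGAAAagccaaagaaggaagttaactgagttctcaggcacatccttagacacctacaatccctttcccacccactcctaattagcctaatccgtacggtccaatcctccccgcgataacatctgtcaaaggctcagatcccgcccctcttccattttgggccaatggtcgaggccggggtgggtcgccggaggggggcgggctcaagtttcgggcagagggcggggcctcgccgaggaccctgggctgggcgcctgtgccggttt

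Motifs were searched on both strands. In Acod1 the core lay at -63 to -56 and the TATA box at -28 to -23, counted from the start of the gene. In Cs the core lay further away, at -218 to -211, with no TATAAA. The core occurs in 23.9% of all 32851 promoter windows and TATAAA in 13.6%. Of the TCA cycle enzyme genes, 7 had windows, 13 in all, of which 3 windows of 2 genes, Cs and Ogdh, held the core and 0 held TATAAA. The full interferon-stimulated response element, searched as GAAA followed by any 2 bases and GAAA again, overlaps the core. It was in none of the windows of Acod1 or these 7 genes, against 3.44% of all windows. TATAAA was added to the search after the Acod1 sequence was seen. A match describes letters and is not evidence of binding.

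**Figure D1:**
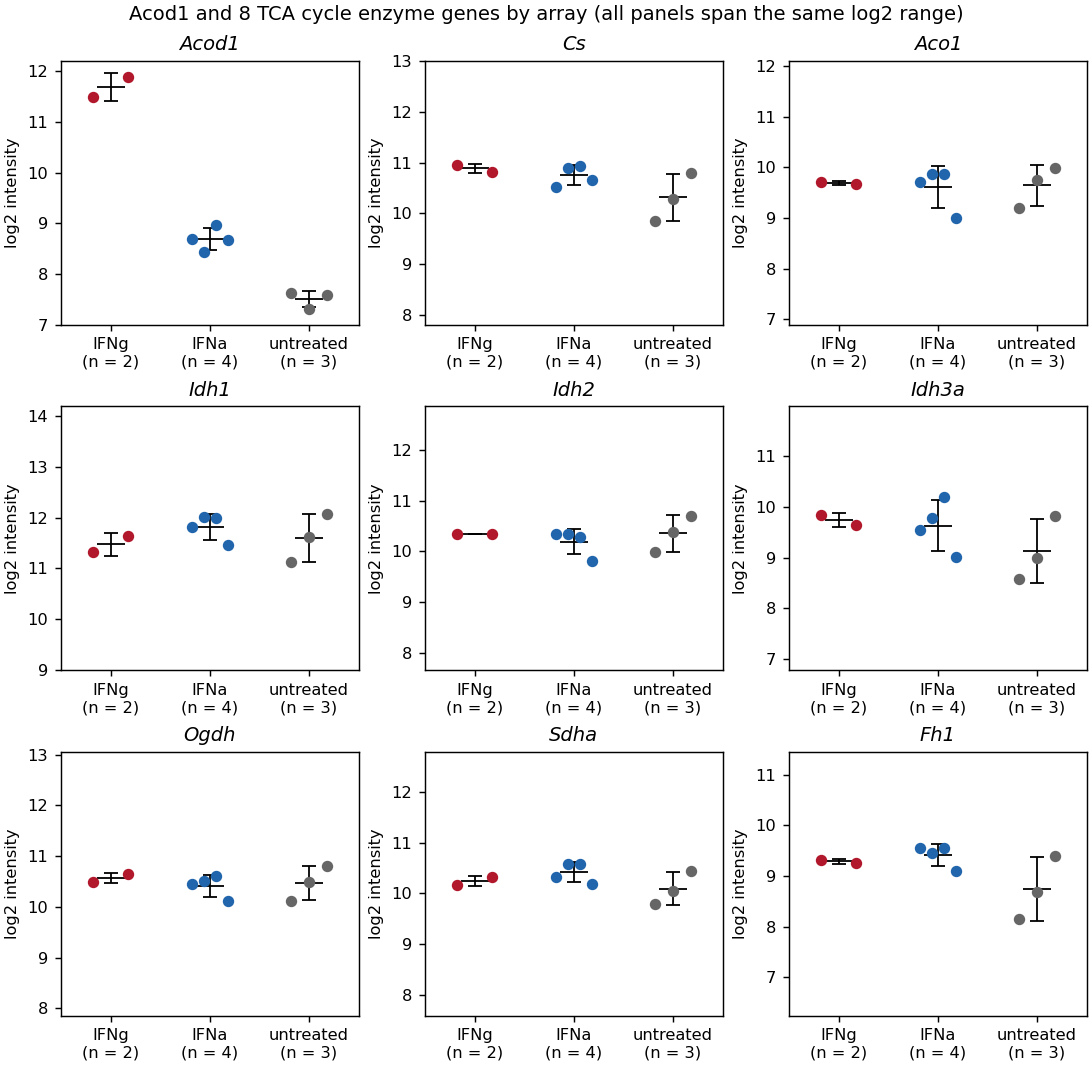
The log2 intensity (vertical axis) of Acod1 and the 8 TCA cycle enzyme genes is plotted for each array in the IFNg, IFNa and untreated groups. Points are arrays, bars are the mean and SD, and every panel spans the same log2 range. Acod1 falls into 3 separate levels, with means of 11.68, 8.69 and 7.51, whereas nearly all enzyme genes overlap between groups.

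None of the 8 enzyme genes passed the test in any comparison. Their log2 differences ran between -0.12 and 0.60 after IFNg (adjusted p 0.586 to 0.981), between -0.16 and 0.67 after IFNa (0.296 to 0.988) and between -0.34 and 0.15 for IFNg against IFNa (0.802 to 0.919). At an unadjusted p under 0.05, 1 of 8 passed after IFNg, 1 after IFNa and 0 in the direct comparison, against 8.23%, 11.9% and 7.07% of all genes. Their median differences were 0.13, 0.27 and 0.09, beside medians of all genes of -0.06, -0.02 and -0.03. Since both comparisons with untreated share the same 3 untreated arrays, like values in the 2 are not separate results. The 95% intervals leave room for changes: over the 8 genes they reached from -0.72 to 1.46 after IFNg and from -0.58 to 1.25 after IFNa.

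Cs, citrate synthase, brings acetyl-CoA into the cycle. It measured log2 10.94 and 10.82 in the IFNg arrays, 10.52, 10.89, 10.92 and 10.66 in the IFNa arrays, and 9.86, 10.29 and 10.79 in the untreated arrays. Both IFNg arrays lay above all untreated arrays, by a gap of 0.03, while 2 of 4 IFNa arrays did. The differences were 0.57 ± 0.25 after IFNg (0.02 to 1.12, adjusted p = 0.586) and 0.44 ± 0.21 after IFNa (-0.02 to 0.90, adjusted p = 0.466). The interval after IFNg leaves out 0 before adjustment, and the call was not made.

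Aco1 encodes the cytosolic aconitase, which becomes an RNA-binding regulator of iron metabolism when it loses its iron-sulfur cluster. Its values were 9.72 and 9.67 after IFNg, 9.72, 9.88, 9.86 and 9.001 after IFNa, and 9.203, 9.76 and 9.99 in untreated cells. The groups overlapped, and IFNa replicate 4 and untreated replicate 1 were the lowest arrays. The differences were 0.05 ± 0.29 after IFNg (-0.61 to 0.70) and -0.04 ± 0.24 after IFNa (-0.58 to 0.51).

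The isocitrate dehydrogenase genes cover the NADP-dependent enzymes of the cytosol (Idh1) and of mitochondria (Idh2) and the catalytic subunit of the NAD-dependent enzyme of the cycle (Idh3a). Idh1 had log2 values of 11.32 and 11.64 after IFNg, 11.81, 12.02, 11.99 and 11.46 after IFNa, and 11.12, 11.61 and 12.07 in untreated cells. The IFNg arrays lay within the untreated range. It differed by -0.12 ± 0.27 after IFNg (-0.72 to 0.48), by 0.22 ± 0.22 after IFNa (-0.28 to 0.73) and by -0.34 ± 0.26 between IFNg and IFNa (-0.92 to 0.23).

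Idh2 showed exactly the same intensity, 1289, in 4 arrays, IFNg replicates 1 and 2 and IFNa replicates 1 and 2. Its log2 values were thus 10.33 and 10.33 after IFNg, 10.33, 10.33, 10.29 and 9.82 after IFNa, and 9.98, 10.38 and 10.70 in untreated cells. Equal values are a feature of the deposited table: 5.70% of genes had 4 or more arrays at 1 value and 39.0% had 2 or more. Aco1 and Ogdh each had 1 value shared by 2 arrays. The SD of 0 of the IFNg arrays for Idh2 is therefore no measure of biological spread. The differences of Idh2 were -0.02 ± 0.23 after IFNg (-0.53 to 0.48) and -0.16 ± 0.19 after IFNa (-0.58 to 0.26).

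Idh3a had the largest standard error of the 8 genes. It measured 9.84 and 9.64 after IFNg, 9.55, 9.79, 10.19 and 9.01 after IFNa, and 8.58, 9.002 and 9.82 in untreated cells. The highest untreated array lay within the range of both treated groups. Its differences were 0.60 ± 0.38 after IFNg (-0.25 to 1.46, adjusted p = 0.72) and 0.50 ± 0.32 after IFNa (-0.22 to 1.22, adjusted p = 0.683).

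Ogdh, a component of the 2-oxoglutarate dehydrogenase complex, had values of 10.50 and 10.65 after IFNg, 10.44, 10.51, 10.60 and 10.11 after IFNa, and 10.12, 10.50 and 10.80 in untreated cells. The arrays of both treated groups lay within the untreated range except for IFNa replicate 4, which was just below it. Ogdh differed by 0.10 ± 0.21 after IFNg (-0.38 to 0.58) and by -0.05 ± 0.18 after IFNa (-0.45 to 0.35).

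Sdha, the subunit of the enzyme that itaconate inhibits, had values of 10.17 and 10.31 after IFNg, 10.31, 10.57, 10.58 and 10.19 after IFNa, and 9.79, 10.03 and 10.44 in untreated cells. Of the IFNa arrays 2 of 4 lay above every untreated array, and no IFNg array did. It differed by 0.15 ± 0.20 after IFNg (-0.30 to 0.61) and by 0.32 ± 0.17 after IFNa (-0.06 to 0.71, adjusted p = 0.546).

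Fh1, fumarase, had the smallest adjusted p of the enzyme genes after IFNa. Its values were 9.32 and 9.25 after IFNg, 9.55, 9.46, 9.55 and 9.10 after IFNa, and 8.14, 8.68 and 9.40 in untreated cells. Of the IFNa arrays 3 of 4 lay above every untreated array, and IFNa replicate 4 did not. The differences were 0.55 ± 0.31 after IFNg (-0.14 to 1.23, adjusted p = 0.696) and 0.67 ± 0.26 after IFNa (0.10 to 1.25, adjusted p = 0.296). Without untreated replicate 3 the difference after IFNa was 1.00 and passed (adjusted p = 0.0311), the one call among the 8 genes that leaving out a single array produced, in a fit that called 2.25% of all genes higher after IFNa.

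**Figure D2:**
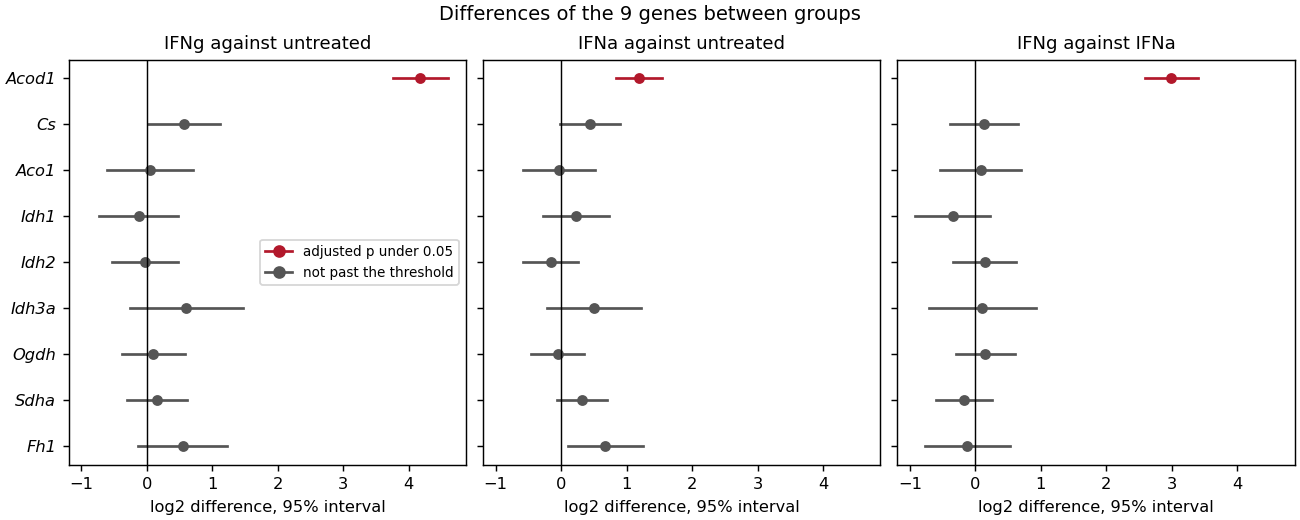
Log2 differences of the 9 genes (points) with 95% intervals (lines) are shown for IFNg against untreated, IFNa against untreated and IFNg against IFNa. Red marks an adjusted p under 0.05. Acod1 is marked in all 3 panels, at 4.18, 1.18 and 2.99, and no enzyme gene is.

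Within the untreated and IFNa groups the 8 enzyme genes shared their lowest array in most cases. Untreated replicate 1 was the lowest untreated array for 8 of 8 genes, and untreated replicate 3 the highest for 8 of 8. IFNa replicate 4 was the lowest IFNa array for 7 of 8 genes, Cs being lowest in IFNa replicate 1, while the highest IFNa array was replicate 1 for 2 genes, replicate 2 for 2 and replicate 3 for 4. In the IFNg group each array was the lowest for 4 of 8 genes, so no such order was seen there. In the untreated and IFNa groups the lowest arrays were also those of narrowest intensity range. The mean log2 level of the 8 genes was 9.60, 10.03 and 10.50 in untreated replicates 1, 2 and 3, whose quartile ratios were 2.27, 2.68 and 3.03. In IFNa replicates 1, 2, 3 and 4 it was 10.28, 10.43, 10.50 and 9.92, with quartile ratios of 2.70, 2.79, 2.91 and 2.16. In the IFNg arrays it was 10.27 and 10.29 at ratios of 2.93 and 2.99. Acod1 did not keep this order, since untreated replicate 1 was its highest untreated array.

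The part of the array range in the enzyme differences was not tested. In a fit without IFNa replicate 4 and untreated replicate 1, which also has fewer arrays, the median difference of the 8 genes was -0.04 after IFNg and 0.17 after IFNa, against 0.13 and 0.27 over all arrays, and still 0 of 8 passed. Quantile normalization, which gives all arrays 1 distribution, put it at -0.07 and 0.17, also with 0 of 8 called. A fit with array weights gave low weights to these 2 arrays (0.121 and 0.210) and also to untreated replicate 3 (0.297), the array of widest range, and the highest to untreated replicate 2 (5.07). It called 3 of 8 higher after IFNg (Cs, Idh3a and Fh1), where it called 13.8% of all genes higher. After IFNa it called 5 of 8 higher (Cs, Idh1, Idh3a, Sdha and Fh1), against 11.8% of all genes. Between the interferons it called 1 of 8 lower, Idh1, against 3.11% of all genes. The sign of the median after IFNg thus changed without the 2 narrow arrays and under quantile normalization, while median centring kept it, at 0.17. The rise of Acod1 was 4.23 after IFNg and 1.24 after IFNa without these 2 arrays.

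**Figure D3:**
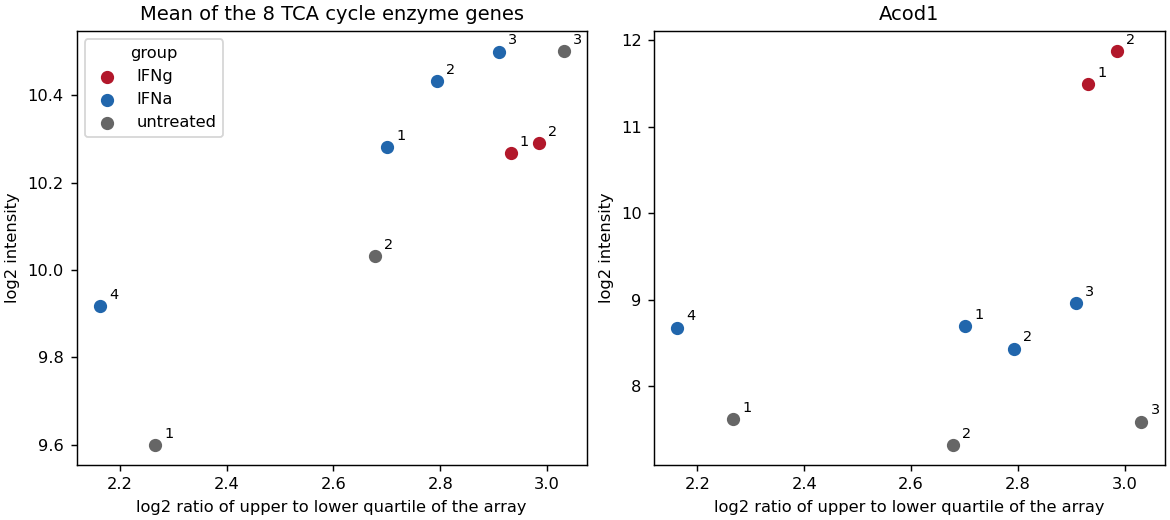
The mean log2 intensity of the 8 TCA cycle enzyme genes (left) and the log2 intensity of Acod1 (right) are plotted against the intensity range of each array (log2 of upper over lower quartile). Colours give the group and numbers the replicate. The enzyme mean is lowest in the arrays with the narrowest range, at 9.60 and 9.92, while Acod1 separates by group at any range.

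Lists of neighbouring pathways were read in the same test. Of 12 other TCA cycle enzyme genes with values 0 were called in any comparison, nor at an unadjusted p under 0.05. Their median differences were 0.26 after IFNg, 0.11 after IFNa and 0.16 between the interferons, and without the 2 arrays of narrow range 0.0133, -0.0576 and 0.0385. Over the 20 enzyme genes of the cycle with values, the differences lay between -0.12 and 0.60 after IFNg and between -0.20 and 0.67 after IFNa. The smallest p in the list of 12 belonged to Mdh2, the mitochondrial malate dehydrogenase, after IFNg (0.49 ± 0.28, adjusted p = 0.697) and against IFNa (0.38 ± 0.26, adjusted p = 0.802), and to Sdhd, a membrane anchor of succinate dehydrogenase, after IFNa (0.34 ± 0.26, adjusted p = 0.769).

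One gene of the supply routes rose. Got1, the cytosolic aspartate aminotransferase of the malate-aspartate shuttle, had log2 values of 11.002 and 10.87 after IFNg, 9.41, 10.04, 9.97 and 9.89 after IFNa, and 8.51, 9.38 and 9.61 in untreated cells. Both IFNg arrays lay above all other arrays, and the IFNa arrays overlapped with untreated. The difference was 1.77 ± 0.30 after IFNg (adjusted p = 0.0203), 0.66 ± 0.25 after IFNa (adjusted p = 0.307) and 1.11 ± 0.29 between the interferons (adjusted p = 0.169). The call after IFNg ended without either IFNg array or untreated replicate 2, and when only IFNg and untreated were fitted (adjusted p up to 0.246). Over all arrays Got1 was the single called gene of 11 in the list of glutamine and amino acid supply, whose medians were 0.06 after IFNg and -0.03 after IFNa. Without the 2 arrays of narrow range 1 gene of this list was called lower after IFNa, and 1 higher after IFNg than after IFNa. Slc1a5, a glutamine transporter gene, had the smallest p after IFNa (-0.58 ± 0.14, adjusted p = 0.0705) and between the interferons (0.72 ± 0.16, adjusted p = 0.089).

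The remaining metabolic lists held no called gene over all arrays. In the list of pyruvate entry (12 measured, medians 0.14 after IFNg and 0.13 after IFNa) 1, 4 and 1 genes had an unadjusted p under 0.05 after IFNg, after IFNa and between the interferons. Pdk3, a kinase that turns pyruvate dehydrogenase off, led after IFNg (0.91 ± 0.39, adjusted p = 0.58). Pdp2, a phosphatase that turns it on, led after IFNa (0.65 ± 0.17, adjusted p = 0.104) and between the interferons (-0.49 ± 0.20, adjusted p = 0.604). It passed after IFNa in 6 of 20 alternatives and between the interferons in 2 of 20. Without the 2 arrays of narrow range 1 gene of this list was called higher and 1 lower after IFNa.

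In the list of citrate export and use (7 measured, medians -0.01 and -0.05) 0, 1 and 0 genes had an unadjusted p under 0.05. Acaca and Fasn, enzymes of fatty acid synthesis, led after IFNg (0.23 ± 0.17, adjusted p = 0.736) and IFNa (-0.37 ± 0.16, adjusted p = 0.41). Slc25a1, the mitochondrial citrate carrier, led between the interferons (0.41 ± 0.22, adjusted p = 0.802). In that of succinate and itaconate handling (10 measured, medians 0.07 and -0.16) the counts were 1, 2 and 1. Sdhaf2, which helps attach the flavin cofactor to Sdha, led after IFNg (0.86 ± 0.29, adjusted p = 0.371) and between the interferons (0.73 ± 0.27, adjusted p = 0.528). Egln3, a prolyl hydroxylase that marks hypoxia-inducible factors for breakdown, led after IFNa (-1.50 ± 0.38, adjusted p = 0.0826). It was called lower there in 5 of 20 alternatives, among them without untreated replicate 1 and under quantile normalization. Without the 2 arrays of narrow range 1 gene of the citrate list was called lower after IFNa. In the succinate and itaconate list 1 gene was then called lower after IFNg and 1 after IFNa.

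NRF2 pathway genes, which itaconate can switch on through KEAP1, had medians of 0.26 after IFNg and 0.21 after IFNa over 11 measured, with 0 called and 2, 2 and 1 at an unadjusted p under 0.05. Txnrd1, a thioredoxin reductase, led after IFNg (0.87 ± 0.24, adjusted p = 0.196), and Keap1 itself led after IFNa (0.70 ± 0.16, adjusted p = 0.0542) and between the interferons (-0.46 ± 0.18, adjusted p = 0.566). Keap1 passed after IFNa in 7 of 20 alternatives, among them quantile normalization and both replicate blocks. With single arrays left out it passed without untreated replicate 3 or else IFNa replicate 1 (adjusted p down to 0.0167). Txnrd1 passed after IFNg in 3 of 20, without untreated replicate 3, with array weights and with the block by title number. Genes of mitochondrial respiration (18 measured, medians 0.31 and 0.13) had 0 called and 3, 1 and 0 at an unadjusted p under 0.05. Cycs, cytochrome c, led after IFNg (0.42 ± 0.17, adjusted p = 0.552), Ppargc1b, a coactivator of mitochondrial genes, after IFNa (-0.36 ± 0.12, adjusted p = 0.204), and Nrf1 between the interferons (0.35 ± 0.16, adjusted p = 0.722). Without the 2 arrays of narrow range the respiration median after IFNg was 0.0542, and the NRF2 medians were 0.0719 after IFNg and -0.0267 after IFNa.

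The list of interferon signalling and known inducers of Acod1 held most of the called genes. Of 16 measured, 4 rose after IFNg and 4 rose and 1 fell after IFNa, against 1.24% of all genes higher after IFNg and 1.79% higher and 0.856% lower after IFNa. The list medians were 0.11 and -0.02. Stat2, a transcription factor of the type I interferon receptor pathway, rose by 2.50 ± 0.18 after IFNg and 3.07 ± 0.15 after IFNa. Irf1, a transcription factor known to induce Acod1, had log2 values of 12.57 and 12.64 after IFNg, 11.46, 11.46, 11.48 and 11.59 after IFNa, and 8.48, 9.37 and 9.48 in untreated cells. It rose by 3.50 ± 0.26 and 2.39 ± 0.21, and its difference between the interferons was 1.11 ± 0.24 (adjusted p = 0.0871). A dimmer probe set of Irf1 gave 1.36, 0.51 and 0.86.

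Irf8, a factor of myeloid cells, was the 1 gene of this list called between the interferons, where 0.537% of all genes were higher. Its values were 12.76 and 12.68 after IFNg, 10.53, 10.64, 10.75 and 10.65 after IFNa, and 10.36, 10.98 and 10.86 in untreated cells. The IFNg arrays stood apart from all others, and the IFNa arrays lay within the untreated range. Irf8 rose by 1.98 ± 0.18 after IFNg (adjusted p = 5.32e-04), differed by -0.09 ± 0.15 after IFNa (adjusted p = 0.93) and by 2.08 ± 0.17 between the interferons (adjusted p = 5.06e-04). Atf3, a stress-induced factor, rose by 1.71 ± 0.25 after IFNg and 1.61 ± 0.21 after IFNa, and the first call ended without either IFNg array (adjusted p up to 0.14). After IFNa the kinase gene Jak2 rose by 1.10 ± 0.22 (adjusted p = 0.0318) and Tfeb, a regulator of lysosomal genes, fell by 0.66 ± 0.12 on the log2 scale (adjusted p = 0.0221). Without untreated replicate 2, IFNa replicate 1 or 3, or either IFNg array neither passed, nor did Jak2 without IFNa replicate 2, and the highest adjusted p was 0.0962 for Jak2 and 0.134 for Tfeb.

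**Figure D4:**
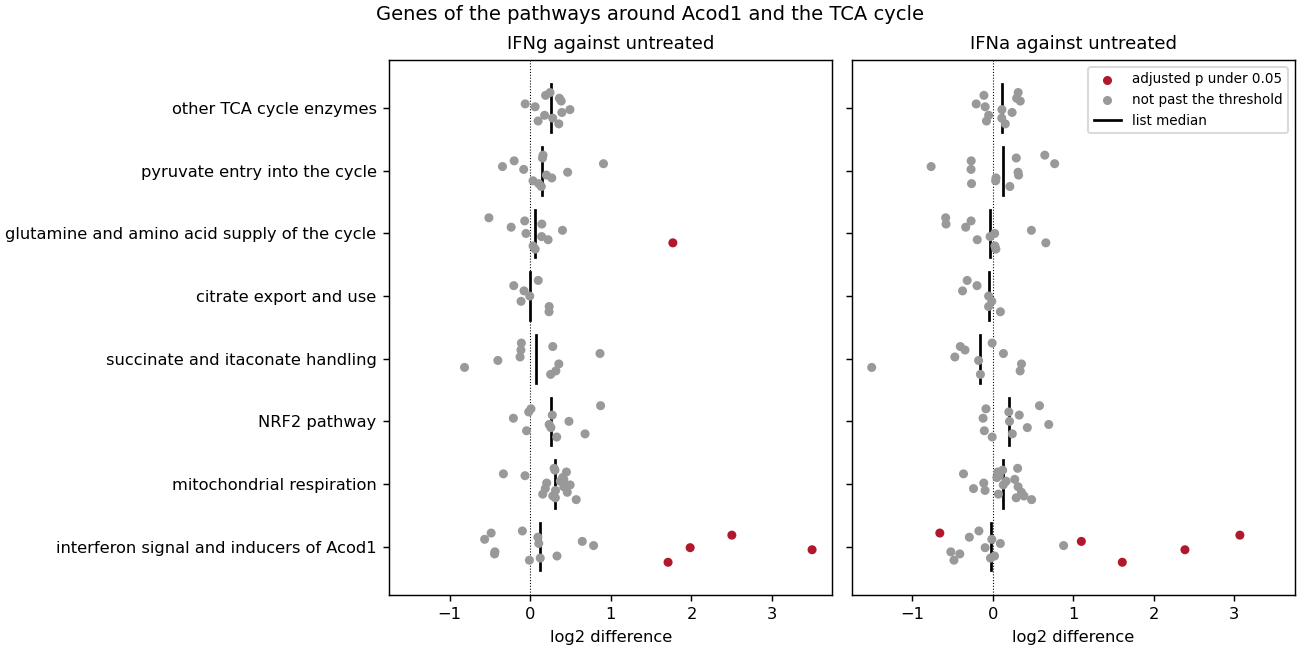
Log2 differences of the genes in 8 lists are shown for IFNg against untreated (left) and IFNa against untreated (right). Each point is a gene, red where the adjusted p was under 0.05, and the black line is the list median. Called genes stand in the interferon list and, after IFNg, at Got1 (1.77).

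The genes whose log2 values over the 9 arrays were most like those of Acod1 were Dusp10 (Pearson r = 0.990), Cd300lf (0.978), Casp12 (0.978), Prdm1 (0.975), Aste1 (0.972), Tnfsf14 (0.972), Calhm6 (0.970) and Insl6 (0.967). The arrays share groups and treatment, so these values mainly describe a common order of groups and carry no test. Dusp10, a phosphatase of MAP kinases, differed from untreated by 2.00 after IFNg and 0.49 after IFNa, Cd300lf, an inhibitory receptor of myeloid cells, by 2.06 and 0.67, and Casp12, an inflammatory caspase, by 2.61 and 1.07. The untreated level of Casp12, log2 4.80 to 4.93, was close to the dim end of the arrays, so the size of its difference is not exact. Prdm1, which encodes the repressor BLIMP1, differed by 1.10 and 0.42, Tnfsf14, the TNF family ligand LIGHT, by 1.31 and 0.28, and Calhm6 by 2.52 and 0.69. Aste1 differed by 1.52 and 0.37, and Insl6 by 0.52 and 0.14. After IFNa Prdm1 (adjusted p = 0.126), Aste1 (0.338), Tnfsf14 (0.50) and Insl6 (0.738) were not called. Insl6 was not called after IFNg either (adjusted p = 0.094). The calls of Dusp10, Cd300lf and Calhm6 after IFNa each ended in 9 of 20 alternatives. All 8 had smaller differences than Acod1 after IFNg. Among the enzyme genes the correlation with Acod1 ran from -0.20 for Idh1 to 0.55 for Cs, which ranked 1272nd of 19751 genes.

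**Figure D5:**
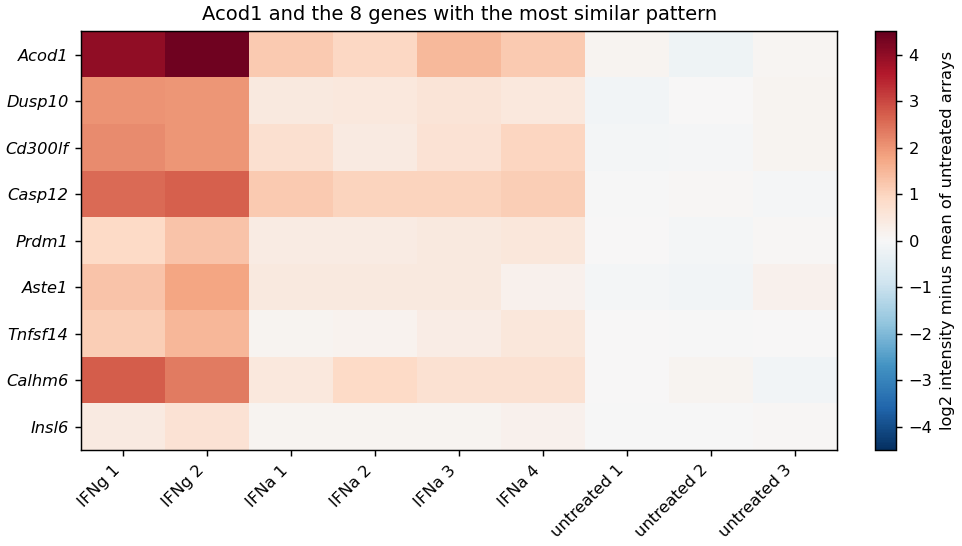
Rows are Acod1 and the 8 genes with the highest correlation with it, columns are arrays, and colour is the log2 intensity minus the mean of the untreated arrays. The IFNg arrays are the darkest red in every row and the IFNa arrays mostly intermediate, with differences of 4.18 and 1.18 for Acod1 and 2.00 and 0.49 for Dusp10.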

How the data were processed

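Messenger RNA was measured on 9 single-colour Affymetrix arrays. The deposited values are linear RMA intensity per probe set, and per the submitters' processing notes they were made by RMA in Affymetrix Power Tools, with no version given. Which arrays were normalized together is not given in the sources used here. The log2 of each value was taken, and each gene was given the probe set that carries only its symbol and has the highest mean (19752 genes from 24922 probe sets). No filter on low intensity was applied. In limma 3.58.1 (R 4.3.3), 1 model with a mean per group covered the 9 arrays. Its variances were moderated, with 3.62 prior and 6 residual degrees of freedom, and all groups, the 2 IFNg arrays included, shared 1 spread. P-values were two-sided and adjusted over all genes. The fit was tested on simulated data with random noise of each gene's own spread and 200 genes changed 2-fold. It recovered 52% of them for IFNg against untreated, 61% for IFNa against untreated and 52% for IFNg against IFNa. A gene that is not called can therefore still differ 2-fold. Errors after log2 differences are standard errors.

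The 9 genes, the gene and marker lists and the tests were chosen with earlier results of these data known. Beyond the 9 genes, the text names the 8 genes most correlated with Acod1 (predicted genes left out), and from each list up to 3 called genes with the smallest p, or the one with the smallest p where none was called. Further called genes of the interferon list, Gata6 and the genes beside Acod1 in the genome were named after their values were seen. Alternatives were an intensity trend or robust variances, removal of the dimmest 30% of genes, quantile normalization, median centring, a fit of the 2 groups compared, array weights (gene by gene, since the default estimate did not converge), replicate blocks, all probe sets, a stricter call, and arrays left out. Same-numbered arrays did not deviate together throughout, with correlations of deviations from group means between -0.21 and 0.60 for the numbers of the titles, so the numbers were not taken as pairs. Sequences are from RefSeq, build GRCm38.p6. 8 of the 9 genes matched. A motif that was also searched is not reported here. Tables and figures were made in Python 3.11.15 (pandas 2.3.3, NumPy 2.4.6, Matplotlib 3.10.9).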

Additional observations from a re-analysis of the deposited data

Results flagged for a closer look

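One value stood far from its group. The log2 level of Idh2 in IFNa replicate 4 was 9.82, while the other 3 IFNa arrays lay at 10.29, 10.33 and 10.33. Of those, 2 shared exactly 1 intensity, which narrows the range against which the gap is judged. The array was also the one with the narrowest intensity range, a quartile ratio of log2 2.16, and the part of that range in the value was not tested. Only the IFNa group had enough arrays for this comparison, so 9 genes were looked at, and chance flags about 5% of such groups.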

How the results depend on the processing

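Acod1 kept its direction and its call in all 3 comparisons under each of the 20 alternatives, with log2 differences of 3.98 to 4.37 after IFNg (adjusted p at most 0.00143), 1.09 to 1.30 after IFNa (at most 0.0201) and 2.80 to 3.19 between the interferons (at most 0.00632). With replicate blocks its values were 4.26, 1.19 and 3.07 by title number and 4.12, 1.28 and 2.84 by description number. The number of the 8 enzyme genes called stayed at 0 except in these settings. It was 3 after IFNg, 5 after IFNa and 1 between the interferons with array weights, which ran from 0.121 for IFNa replicate 4 to 5.07 for untreated replicate 2. With the block by description number it was 2 after IFNa, Idh3a and Fh1, both higher, where 726 of all 19752 genes were called higher. IFNa replicate 4 was the only array with its description number. It ranged from 0 to 1 after IFNa when single arrays were left out.

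Numbers of genes called depended on the setting more. After IFNg 245 were higher and 22 lower over all arrays, 128 and 3 at an adjusted p under 0.01, 13 lower at 2-fold, 112 and 7 when only 2 groups were fitted, 276 and 80 under quantile normalization, 589 and 110 with the title block, 358 and 145 without the 2 narrow arrays, and 2735 and 3432 with array weights. After IFNa 354 were higher and 169 lower over all arrays, 31 lower at an adjusted p under 0.01, 26 at 2-fold, 100 with an intensity trend, 105 under median centring, 74 with 2 groups, 421 under quantile normalization (with 500 higher) and 638 without the narrow arrays (with 468 higher), while 726 and 587 were higher with the description and title blocks, and 2333 and 3240 were higher and lower with array weights. IFNg against IFNa gave 106 higher and 87 lower over all arrays, 48 and 42 at an adjusted p under 0.01, 116 and 160 under quantile normalization, 56 higher with the description block, 292 and 250 without the narrow arrays, and 1031 and 614 with array weights. Leaving out single arrays gave 79 to 363 higher and 1 to 44 lower after IFNg, 27 to 255 lower after IFNa, and 21 to 146 higher and 21 to 130 lower between the interferons.

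Signs of uncalled differences turned in several settings. Not all of them were near 0 over all arrays: Mdh2 was 0.38 between the interferons and Idh1 0.22 after IFNa. With array weights Aco1 was -0.0528 after IFNg, 0.0827 after IFNa and -0.14 between the interferons, Ogdh 0.0251 after IFNa and Idh3a -0.13 between the interferons. Under quantile normalization Aco1, Ogdh and Sdha were -0.17, -0.11 and -0.0342 after IFNg, and Aco1 and Idh3a -0.0965 and -0.0742 between the interferons. Median centring put Idh2 at 0.0200 after IFNg. With the title block Idh1 and Idh2 were 0.00722 and 0.0581 after IFNg, Aco1 and Ogdh 0.17 and 0.0480 after IFNa, and Aco1 -0.0282 between the interferons. With the description block Aco1 and Ogdh were -0.0907 and -0.0330 after IFNg, Aco1, Idh2 and Ogdh 0.34, 0.11 and 0.23 after IFNa, and Cs, Aco1, Idh2, Idh3a, Ogdh and Mdh2 -0.28, -0.43, -0.24, -0.67, -0.26 and -0.0367 between the interferons. Without the 2 narrow arrays Aco1 and Ogdh were -0.18 and -0.0780 after IFNg, and Aco1 and Idh3a -0.12 and -0.11 between the interferons. With single arrays left out the ranges that crossed 0 were, after IFNg, -0.36 to 0.11 for Idh1, -0.18 to 0.22 for Aco1, -0.0780 to 0.26 for Ogdh and -0.21 to 0.15 for Idh2, after IFNa, -0.26 to 0.17 for Aco1, -0.23 to 0.11 for Ogdh, -0.0172 to 0.45 for Idh1 and -0.35 to 0.0117 for Idh2, and between the interferons, -0.12 to 0.17 for Aco1 and -0.11 to 0.29 for Idh3a. The cause of these turns was not tested. With 2 IFNg arrays the precision of every IFNg value is limited by their number.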

Other observations

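The genes next to Acod1 in the mouse genome with values on these arrays were Lmo7 and Kctd12 on one side and Mycbp2 and Scel on the other. Their log2 differences after IFNg were -0.12 ± 0.18, -0.25 ± 0.17, 0.18 ± 0.14 and -0.01 ± 0.12 in that order, and after IFNa 0.18 ± 0.15, -0.26 ± 0.14, 0.24 ± 0.12 and -0.05 ± 0.10. None of the 4 passed the test, with adjusted p of 0.51 or more.

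Over all arrays, markers of other cells did not pass after IFNg. The summed intensity of 5 B cell markers was 578 to 633 after IFNg, 549 to 1951 after IFNa and 691 to 1003 in untreated cells. That of 6 mast cell markers was 336 to 339, 343 to 407 and 393 to 536, and that of 7 T and NK cell markers 492.5 to 497, 455 to 682 and 480.3 to 679. Of the mast cell markers 2, and of the T and NK cell markers 2, stayed near the dim end on every array. The median differences after IFNg and IFNa were -0.44 and -0.02 for the B cell list, -0.35 and -0.21 for the mast cell list, and -0.20 and -0.06 for the T and NK cell list. That of 7 mesothelial and stromal markers was 1157 to 1244, 1209 to 1514 and 1083 to 1559. Of 8 markers of small macrophages, monocytes and dendritic cells 1 was called, Plac8 after IFNa (1.00 ± 0.18, adjusted p = 0.0156), named after its values were seen. That call did not pass without IFNa replicate 2 or untreated replicate 2 (adjusted p up to 0.0851). After IFNg Plac8 differed by a like amount, 1.03 ± 0.21, and was not called (adjusted p = 0.0537). Without the 2 arrays of narrow range 1 marker of this list was called lower after IFNg. That list summed to 16934 to 17513 after IFNg, 17744 to 17821 after IFNa and 18019.8 to 18513 in untreated cells. In it Fn1, named after its values were seen, averaged log2 13.97, 14.01 and 14.04. The next brightest marker, Irf4, averaged 8.45, 8.59 and 8.78. The sum therefore mainly follows Fn1 and says little of the other markers.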
